A study of Rattus norvegicus with 24 samples.

Results

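The genes described here are 6 that build the fibrous matrix around muscle fibres: Col1a1, Col1a2 and Col3a1, which encode chains of fibrillar collagens, and Fn1, Sparc and Lox, whose products help to assemble and cross-link them. They were taken by Ensembl gene ID from a table of 31998 genes. No cut on their values was used, but the choice was made with earlier results of these data known. The table gives no gene names, so the symbols rest on the ID list alone: ENSRNOG00000003897 (Col1a1), ENSRNOG00000011292 (Col1a2), ENSRNOG00000003357 (Col3a1), ENSRNOG00000014288 (Fn1), ENSRNOG00000012840 (Sparc) and ENSRNOG00000014426 (Lox). The libraries hold RNA of the plantaris muscle in the calf of 14-month-old female rats of generation 19 of the HRT and LRT lines, which were bred for a high and a low response to endurance training. Overload was made by removing the gastrocnemius and soleus of one leg, which leaves the plantaris to carry the load, and the muscle was taken after 14 days. Each line gave 6 control and 6 overloaded libraries, 4 groups in all. Whether a control muscle was the other leg of an operated rat, and whether libraries of a group came from different rats, is not in the labels. The p-values therefore measure only the spread between these libraries.

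Fibrillar collagens are secreted as precursor chains that wind into triple helices and then align into fibrils. Type I collagen, made of the Col1a1 and Col1a2 chains, gives the connective tissue of muscle its tensile strength, and type III collagen, made of Col3a1 chains, forms finer fibrils that are prominent in growing and healing tissue. Fibronectin (Fn1) is a scaffold on which collagen is laid down, Sparc is a collagen-binding matricellular protein, and Lox, lysyl oxidase, makes the covalent cross-links that stiffen fibrils. In muscle these products come mainly from fibroblasts and related cells between the fibres. In whole muscle, more cells of such a type and more RNA per cell cannot be told apart.

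Library totals ran from 26997324 to 34255103 estimated counts. RNA integrity (RIN) was higher after overload, at 8.97 ± 0.327 against 8.27 ± 0.216 in HRT (SD, n = 6) and 8.67 ± 0.258 against 8.28 ± 0.147 in LRT. LRT control replicate 2 stood apart from its group in these genes. Results of the edgeR and ratio tests on these genes whose call changed without it are given with and without it. Other LRT control values include it unless stated. The row IDs could not be tied to other gene names, so markers of muscle, fibroblasts or other cell types were not analysed here. Levels are in CPM, counts scaled to a common library total. They are not corrected for gene length, so they are compared between libraries and not between genes.

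All 6 genes rose steeply with overload in both lines. Col3a1 had the largest rise in HRT, 22.1-fold, except in fits with RIN as a covariate, and Col1a1 the largest in LRT, 18.0-fold, while Sparc had the smallest in each line, 7.75-fold and 5.64-fold. For each gene, every overloaded library lay above every control library of its line, a separation that 21.4% of the 16661 tested genes showed in HRT and 17.3% in LRT. All 6 passed the edgeR test upward in each line, where 31.9% of tested genes did so in HRT, 28.9% in LRT and 25.5% in both. Each rise was over 2-fold, which 15.3% of tested genes reached in HRT and 12.9% in LRT. The median log2 fold change of the 6 genes was 3.80 in HRT and 3.44 in LRT, against −0.02 over all tested genes in each line. Summed over the 6 genes, their share of all counts was 0.113% ± 0.0328 in control and 2.39% ± 1.31 in overloaded HRT muscle (SD, n = 6). The LRT shares were 0.0943% ± 0.0408 and 1.35% ± 0.545.

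**Figure D1:**
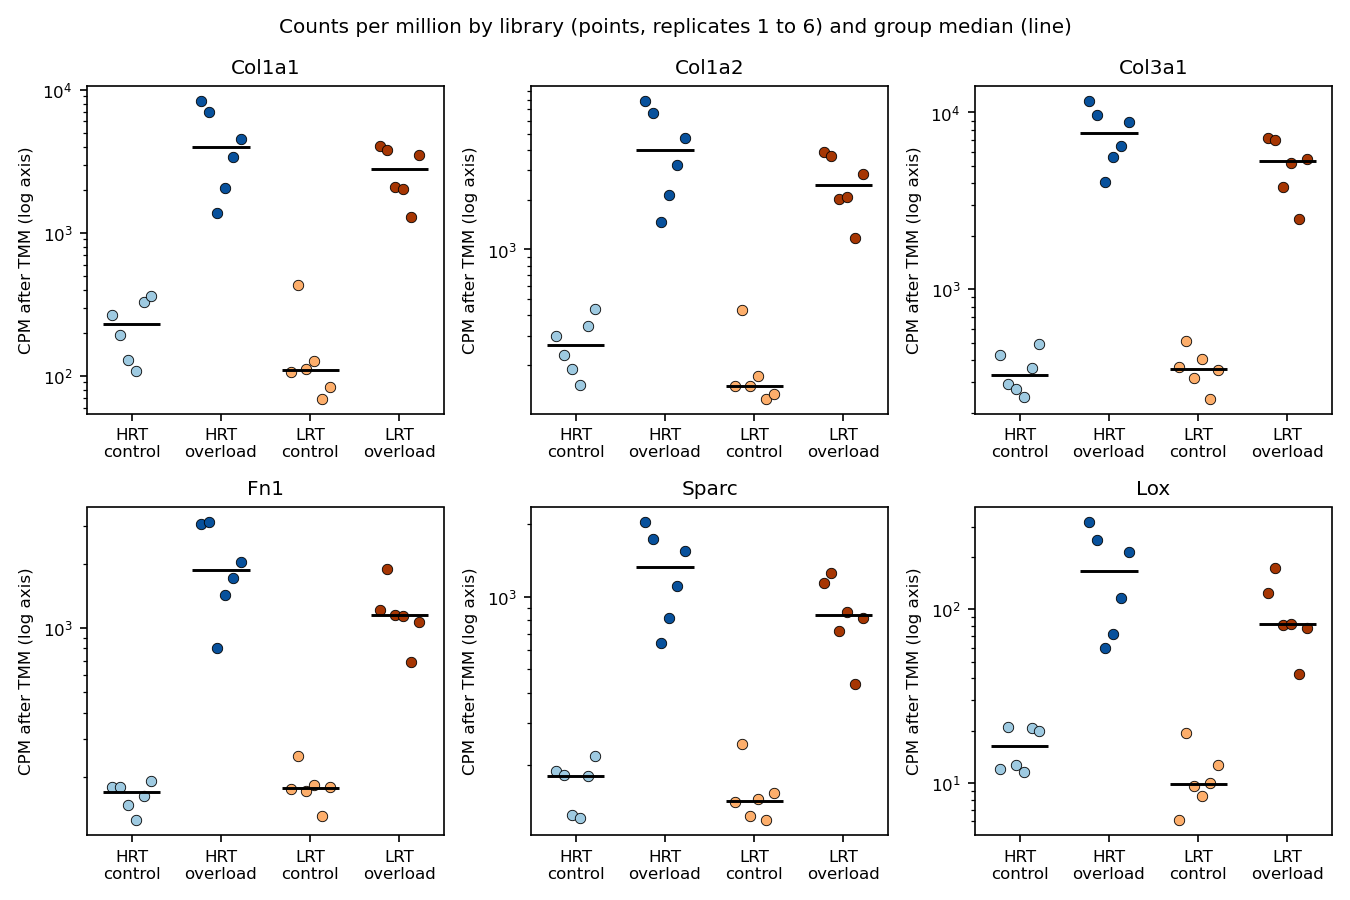
CPM (log axis) of the 6 genes in each of the 24 libraries, 1 panel per gene, with points for replicates 1 to 6 and a line at the group median. In every panel the overloaded libraries of a line lie above its control libraries, and HRT and LRT overload libraries overlap.

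Among the collagen chains, Col1a1 ran from 109 to 364 CPM in HRT control (median 230) and from 1371 to 8353 in HRT overload (median 3946). In LRT it ran from 69.3 to 430 CPM in control (median 109) and from 1293 to 4071 in overload (median 2793). The top LRT control value was that of replicate 2, and the other 5 libraries of that group were at or below 126 CPM. The log2 fold change of Col1a1 was 4.26 ± 0.53 in HRT (SE; edgeR adjusted p = 5.57e-07) and 4.17 ± 0.53 in LRT (edgeR adjusted p = 1.22e-06). Without LRT control replicate 2 the LRT value was 4.81 (edgeR adjusted p = 1.03e-07). Its partner chain Col1a2 ran from 152 to 439 CPM in HRT control (median 265) and from 1457 to 7887 in HRT overload (median 3967). In LRT, Col1a2 ran from 126 to 434 CPM in control (median 150) and from 1167 to 3863 in overload (median 2464). Its log2 fold changes were 3.98 ± 0.44 and 3.75 ± 0.44 (SE; edgeR adjusted p = 9.31e-08 and 3.53e-07). Without LRT control replicate 2 the LRT value of Col1a2 was 4.15 (edgeR adjusted p = 1.07e-07). Both chains of type I collagen thus spread widely within each overloaded group, by 6.09 times from lowest to highest for Col1a1 in HRT and 3.15 times in LRT.

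Col3a1, the type III chain, was the steadiest of the collagens among control muscles. It ran from 247 to 493 CPM in HRT control (median 327) and from 4022 to 11630 in HRT overload (median 7637). In LRT it ran from 241 to 507 CPM in control (median 357) and from 2496 to 7131 in overload (median 5333). Its log2 fold change was 4.47 ± 0.29 in HRT (SE; edgeR adjusted p = 3.2e-11) and 3.83 ± 0.29 in LRT (edgeR adjusted p = 5.32e-10), the smallest adjusted p of the 6 genes in each line. Ordered by count, Col3a1 was in position 9 among tested genes in HRT overload, against position 276 in HRT control. That order is not corrected for gene length, so only the change in position between groups is read from it.

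Of the genes that act on the fibrils, fibronectin (Fn1) ran from 126 to 192 CPM in HRT control (median 171) and from 803 to 3117 in HRT overload (median 1869). In LRT it ran from 132 to 251 CPM in control (median 178) and from 692 to 1883 in overload (median 1143). The log2 fold changes of Fn1 were 3.62 ± 0.28 in HRT and 2.71 ± 0.27 in LRT (SE; edgeR adjusted p = 2.89e-10 and 2.51e-08). Control values of Fn1 lay close together, with an SD of 0.23 on the log2 scale in HRT and 0.30 in LRT. Sparc ran from 121 to 218 CPM in HRT control (median 181) and from 641 to 2029 in HRT overload (median 1328). In LRT, Sparc ran from 119 to 246 CPM in control (median 143) and from 434 to 1258 in overload (median 838). Its log2 fold changes were 2.95 ± 0.28 and 2.49 ± 0.28 (SE; edgeR adjusted p = 9.29e-09 and 1.57e-07). Without LRT control replicate 2 the LRT value of Sparc was 2.67 (edgeR adjusted p = 1.37e-07).

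Lox, the cross-linking enzyme, ran from 11.6 to 20.9 CPM in HRT control (median 16.3) and from 59.5 to 317 in HRT overload (median 165). In LRT it ran from 6.10 to 19.5 CPM in control (median 9.82) and from 42.3 to 174 in overload (median 82.0). Its log2 fold changes were 3.40 ± 0.42 in HRT and 3.13 ± 0.42 in LRT (SE; edgeR adjusted p = 5.1e-07 and 2.32e-06). The HRT call of Lox was lost in 1 of 22 other settings, which had both a replicate block and RIN in the model (log2 fold change 3.18, edgeR adjusted p = 0.0525). Adding RIN alone as a covariate gave larger changes: 5.19 for Col1a1, 4.68 for Col1a2, 4.28 for Fn1 and 4.06 for Lox in HRT, and 4.96 for Col1a1 in LRT, each over 1.5 times the fold above. Col3a1 was at 4.82 in HRT in that fit, below Col1a1, and the order was also turned with RIN and a replicate block (4.43 against 4.67).

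**Figure D2:**
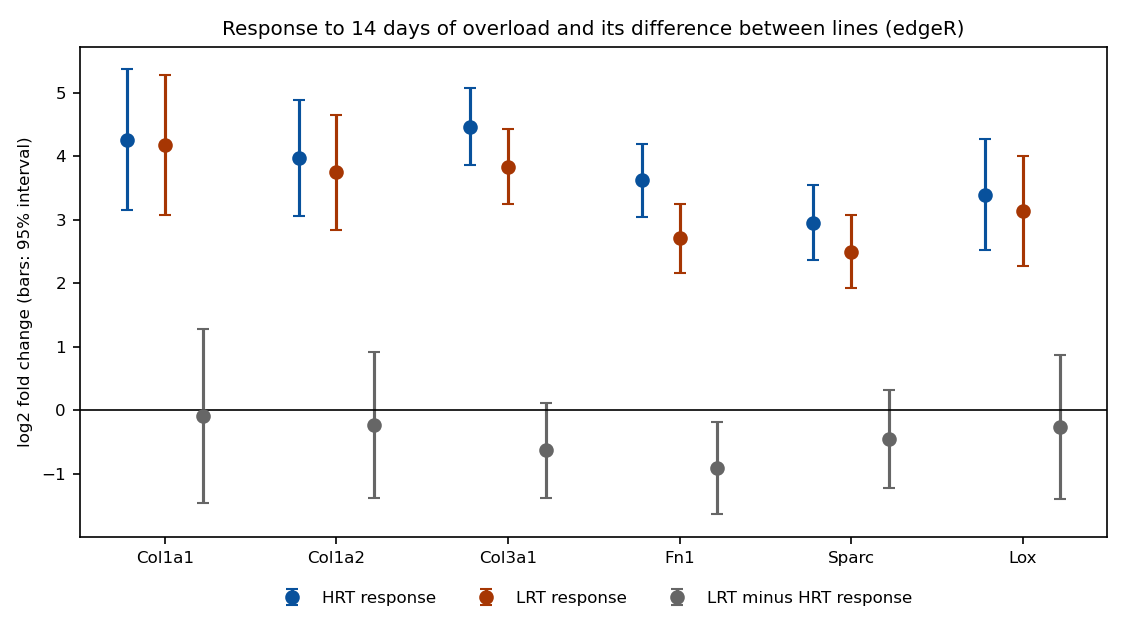
Log2 fold changes from edgeR with 95% intervals for overload in HRT (blue), overload in LRT (orange-brown) and the LRT minus HRT difference (grey), by gene. All overload intervals lie above 0, from 1.92 at the lowest bound, and 5 of the 6 intervals of the difference include 0.

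The genes did not rise by the same factor. This was asked within each library, as the ratio of a gene's count to that of Col1a1, since such a ratio does not depend on how libraries are scaled and gene length cancels between libraries. The 5 ratios share Col1a1 as denominator. Sparc fell furthest behind Col1a1. Its HRT log2 ratio averaged −0.34 ± 0.42 before and −1.61 ± 0.37 after overload (SD, n = 6), and its LRT ratio 0.27 ± 0.60 and −1.64 ± 0.30. The differences of −1.27 in HRT and −1.91 in LRT each had a two-sided exact permutation p of 0.00216, which is the lowest that can be reached with 6 libraries a group, and an adjusted p of 0.0155 over 25 such tests. Lox also fell relative to Col1a1, with log2 differences of −0.95 in HRT and −1.27 in LRT (exact permutation p = 0.00433 in each line, adjusted p = 0.0155). In HRT control, Lox was counted 0.0750 times as often as Col1a1, and in HRT overload 0.0387 times (geometric means).

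The partner chains of type I collagen also shifted against each other. The log2 ratio of Col1a2 to Col1a1 averaged 0.30 ± 0.19 in control and −0.01 ± 0.07 in overloaded HRT muscle, and 0.49 ± 0.29 and −0.09 ± 0.12 in LRT (SD, n = 6). The change was −0.31 in HRT and −0.58 in LRT (exact permutation p = 0.00433 in each, adjusted p = 0.0155). All 12 overloaded libraries lay below the mean of their controls. These shifts are small beside the rise of either chain. Fn1 fell relative to Col1a1 in LRT, with a log2 difference of −1.70 (exact permutation p = 0.00216, adjusted p = 0.0155). In HRT its difference was −0.65 (exact permutation p = 0.0411, adjusted p = 0.0892) and did not pass.

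Col3a1 relative to Col1a1 differed from the other ratios in its sign in HRT. Its log2 ratio averaged 0.69 ± 0.40 in control and 0.97 ± 0.46 in overloaded HRT muscle, and 1.51 ± 0.65 and 0.92 ± 0.24 in LRT (SD, n = 6). Neither change passed (exact permutation p = 0.26 and 0.0649, adjusted p = 0.342 and 0.125). The LRT change was −0.84 without LRT control replicate 2 and then passed (exact permutation, adjusted p = 0.0108). In control muscle the LRT ratio was higher by 0.82 (exact permutation p = 0.0281, adjusted p = 0.0782). The Fn1 ratio was likewise higher in LRT control, by 0.89 (exact permutation p = 0.0346, adjusted p = 0.0866). Both rest on which libraries are used. Without LRT control replicate 2 the line differences in control were 1.08 for Col3a1 (adjusted p = 0.0108), 1.15 for Fn1 (adjusted p = 0.0135) and 0.82 for Sparc (adjusted p = 0.0135), by exact permutation tests. Each passed in that setting alone, 1 of 15 others, and that library was flagged from values that enter these ratios. After overload the line differences in these 3 ratios were −0.05, −0.16 and −0.03, with adjusted p of 0.846, 0.531 and 0.861 by exact permutation.

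**Figure D3:**
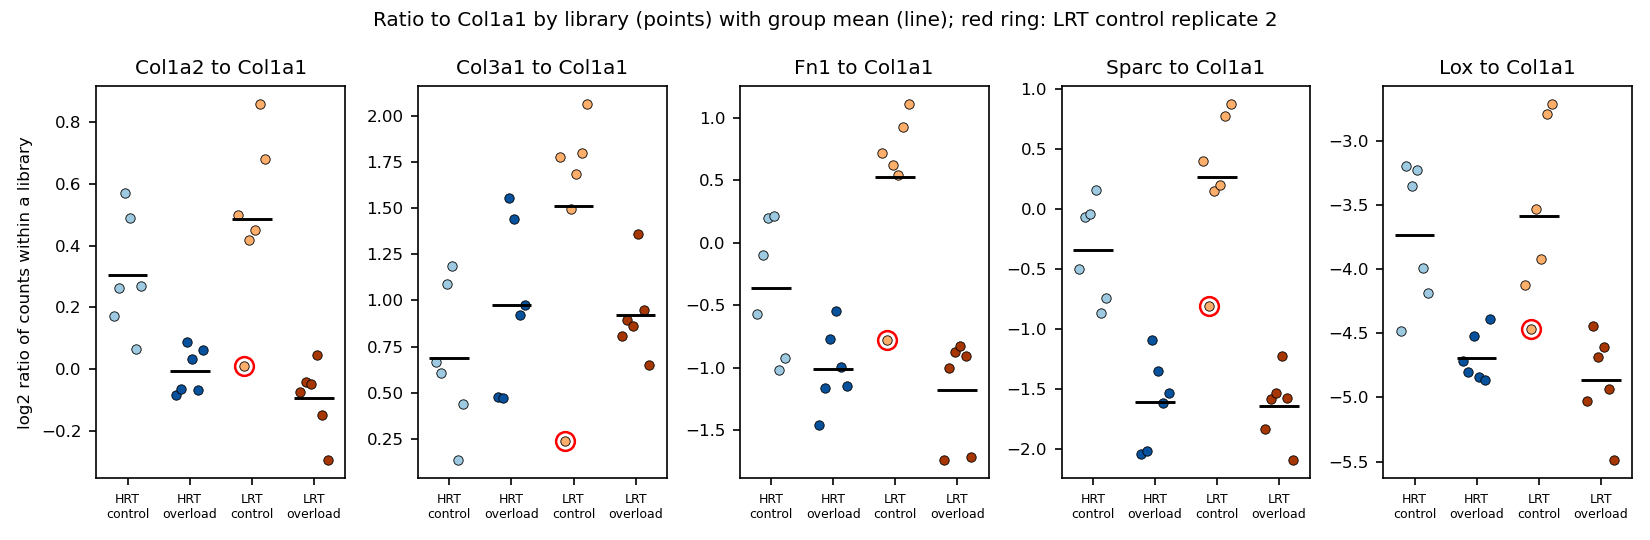
Log2 ratio of each gene's count to that of Col1a1 in the same library, 1 panel per gene, with points for libraries and a line at the group mean. The ratios of Col1a2, Sparc and Lox were lower after overload in both lines, and the ringed library, LRT control replicate 2, has the lowest ratio of its group in all 5 panels.

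In the overloaded groups, the same libraries were highest and lowest in all 6 genes. In HRT overload, replicates 1 and 2 had the highest values of each gene, then replicates 6, 5 and 4, and replicate 3 the lowest, with the order of replicates 1 and 2 turned for Fn1 alone. In LRT overload, replicates 1 and 2 again had the highest values of each gene, and replicate 5 the lowest. The libraries between these changed places: replicate 6 was in position 3 for the collagen chains and in position 5 for Fn1 and Lox. Over the 12 overloaded libraries, centred on their group means, the 15 pairs of genes correlated with Pearson's r from 0.891 (Col3a1 and Fn1) to 0.994 (Col1a1 and Col1a2). Spearman's rho ran from 0.86 to 0.986, and the highest adjusted permutation p over the 15 pairs was 0.00018 for r and 0.00124 for rho. Without the 2 libraries farthest from the median of the first gene of a pair, r ran from 0.783 to 0.989. The libraries share their scaling within a pair, and with scaling by totals alone r ran from 0.919 to 0.995.

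In the 12 control libraries r ran from 0.39 to 0.988, and 12 of 15 pairs had an adjusted permutation p under 0.05. The 3 that did not were the pairs of Lox with Col1a1, Col3a1 and Fn1, at r = 0.642, 0.39 and 0.589 (Spearman's rho = 0.566, 0.28 and 0.51; adjusted permutation p of r = 0.0528, 0.227 and 0.0701). By Spearman's rho the other pairs of Lox did not pass either, at 0.531 with Col1a2 and 0.636 with Sparc (adjusted permutation p = 0.115 and 0.0653), which leaves the 10 pairs without Lox. Without the 2 farthest libraries, r of Lox with Col1a1 was 0.24 and with Col1a2 0.266, so these relations rest on those libraries. The genes also varied more than most. Their median SD on the log2 scale was 0.84 in HRT overload and 0.61 in LRT overload, against 0.25 and 0.21 over all tested genes. In control muscle it was 0.41 in HRT and 0.47 in LRT, against 0.17 and 0.20. RIN was 8.6, 8.6, 9.4, 8.9, 9.1 and 9.2 in HRT overload replicates 1 to 6, and 8.9, 8.6, 8.2, 8.7, 8.7 and 8.9 in those of LRT overload. Its part in this spread was not tested.

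**Figure D4:**
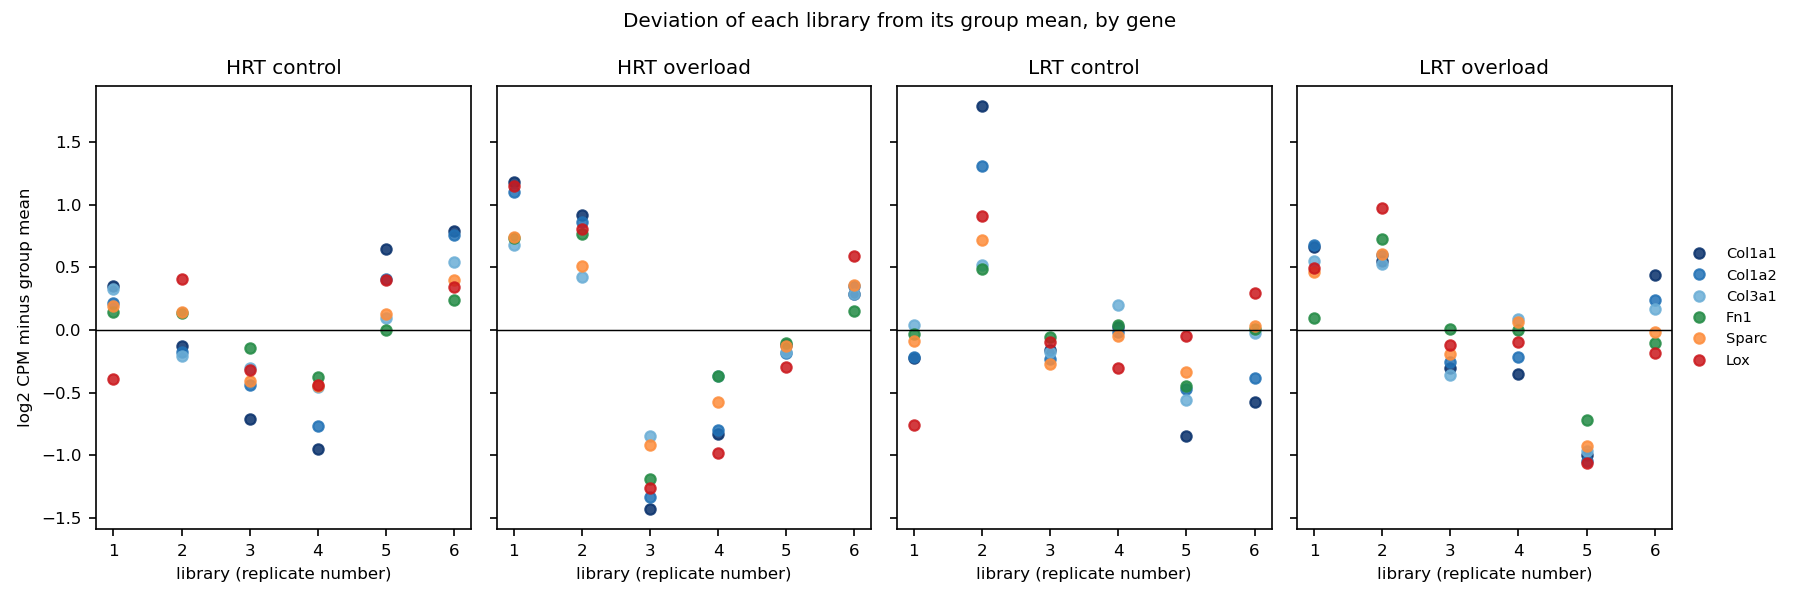
Log2 CPM of each gene minus its group mean, by library, 1 panel per group, with colours for genes. In the overloaded groups the 6 points of a library lie close together, and LRT control replicate 2 is above its group mean in all 6 genes.

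Which genes outside the 6 followed the same libraries was asked over 24 libraries centred on group means. ENSRNOG00000016758 had a mean Pearson's r of 0.91 with the 6 genes (0.851 to 0.962) and ENSRNOG00000003736 a mean r of 0.90 (0.835 to 0.945). Of 16655 other tested genes, 2172 had a mean r over 0.5, and the median was 0.02. ENSRNOG00000016758 went from 12.7 ± 2.34 to 99.9 ± 39.0 CPM in HRT and from 12.1 ± 2.69 to 68.4 ± 25.0 CPM in LRT (SD, n = 6). ENSRNOG00000003736 went from 67.5 ± 10.8 to 768 ± 382 CPM in HRT and from 75.2 ± 12.1 to 455 ± 180 CPM in LRT. Both rose in each line (edgeR adjusted p = 7.75e-09 and 1.43e-07, and 3.13e-09 and 2.46e-07).

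The study asked whether the lines respond differently, and for these genes no difference passed the test. In edgeR, 0 of 6 genes had a response that differed between lines, where 0.048% of tested genes did, and 0 did so with DESeq2 or limma-voom. Only Fn1 had an unadjusted p under 0.05, as 13.6% of tested genes had. The response of Fn1 in LRT was lower than in HRT by 0.91 ± 0.35 on the log2 scale (SE; 95% interval −1.64 to −0.18, edgeR adjusted p = 0.26). For Col3a1 the difference was −0.63 (95% interval −1.38 to 0.11, edgeR adjusted p = 0.441) and for Sparc −0.46 (−1.23 to 0.31, edgeR adjusted p = 0.599). For Lox it was −0.26 (−1.40 to 0.87), for Col1a2 −0.23 (−1.38 to 0.92) and for Col1a1 −0.09 (−1.46 to 1.28), with edgeR adjusted p of 0.866, 0.886 and 0.968. These intervals include differences of over 2-fold between the responses. The sign was not settled for the type I chains. It was the same in 25 of 33 other settings for Col1a1 and in 31 of 33 for Col1a2. Without LRT control replicate 2 the differences were 0.55 for Col1a1 and 0.18 for Col1a2 (edgeR adjusted p = 0.678 and 0.899), and with all libraries limma-voom gave 0.25 for Col1a1 (adjusted p = 0.909).

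The ratios to Col1a1 were compared between lines as well, and for Fn1 and Col3a1 their differences lay in the other state. LRT minus HRT, the edgeR log2 difference of Fn1 was 0.15 in control and −0.76 in overload. That of its ratio was 0.89 in control and −0.16 in overload. For Col3a1 the edgeR differences were 0.06 in control and −0.57 in overload, and those of its ratio 0.82 and −0.05. The LRT minus HRT difference in the change of the ratio was −1.05 for Fn1 (exact permutation p = 0.0262, adjusted p = 0.0782) and −0.88 for Col3a1 (exact permutation p = 0.0428, adjusted p = 0.0892). Without LRT control replicate 2 these were −1.31 (adjusted p = 0.0108) and −1.13 (adjusted p = 0.0137) by exact permutation. The Col1a2 and Sparc differences, −0.27 and −0.64 with all libraries (adjusted p = 0.14 and 0.151, exact permutation), also passed without it, at −0.37 and −0.86 (adjusted p = 0.0179 and 0.0382). The Fn1, Col3a1, Col1a2 and Sparc differences each passed in that setting alone, 1 of 27 others. The library was flagged from values that enter these ratios, so leaving it out is no independent test. The difference for Lox was −0.32 (exact permutation p = 0.426, adjusted p = 0.507).

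In overloaded muscle all 6 genes had lower fitted levels in LRT than in HRT, and 0 of 6 passed the edgeR test, where 3.09% of all tested genes did. The log2 differences, LRT minus HRT, ran from −0.82 for Lox to −0.57 for Col3a1, and 4 of the 6 had an unadjusted p under 0.05, against 22.3% of tested genes. Fn1 came nearest, at −0.76 ± 0.25 (SE; 95% interval −1.28 to −0.25, edgeR adjusted p = 0.0858). Its adjusted p fell below 0.05 in 8 of 22 other settings, and over these it ran from 0.0115 to 0.255. HRT overload replicates 1, 2 and 6 lay above every LRT overload library in each of the 6 genes, and the other 3 HRT libraries lay among the LRT ones. The share of all tested genes with such an order was not counted. The 6 genes varied together among these libraries, so they are not 6 separate observations of it. In control muscle 0 of 6 genes passed in edgeR, where 1.97% of tested genes did. There 0 had an unadjusted p under 0.05, against 16.6% of tested genes. The differences there ran from −0.58 for Col1a1 (edgeR adjusted p = 0.576) to 0.15 for Fn1 (edgeR adjusted p = 0.827). Without LRT control replicate 2, Col1a1 was lower in LRT control by 1.22 (log2 difference −1.22, edgeR adjusted p = 0.108). For each gene the order of mean levels was therefore HRT overload, LRT overload and then the controls, and only the step from control to overload passed the test.

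Promoter sequence from RefSeq was at hand for Col1a2 and Sparc, 2 of the 6 genes that moved together, and a 100-base stretch upstream of each RefSeq start is shown to set the type I collagen promoter beside that of its matricellular partner. The build is GRCr8, whereas the counts were made on Rnor_6.0. Matches were sought on both strands within 250 bases before the start, and capitals mark them. The letters CCAAT were searched first. The TATA box was searched as TATAAA. The third motif was GGAGG, and GGGCGG was searched as well.
Col1a2, chr4:33518307-33518406, plus strand: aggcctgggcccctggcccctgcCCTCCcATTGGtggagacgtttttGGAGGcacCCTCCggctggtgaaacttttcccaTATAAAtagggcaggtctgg
Sparc, chr10:40038887-40038986, minus strand: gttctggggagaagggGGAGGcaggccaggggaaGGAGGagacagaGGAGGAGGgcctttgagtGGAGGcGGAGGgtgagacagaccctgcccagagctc
The Col1a2 window held CCAAT once, on the minus strand, and TATAAA once, at −170 to −165 from the start. Whether that TATAAA serves this start was not tested. The Sparc window held neither in these letters. GGAGG was in both, with 6 matches for Col1a2 and 7 for Sparc over the 250 bases, not all within the stretches shown. The Sparc matches that begin at −124 and −121 share letters. Of 33469 RefSeq upstream windows of the same length, 34.0% held CCAAT, 12.9% TATAAA, 64.7% GGAGG and 30.5% GGGCGG on either strand, the last of which was in neither window. The matches are descriptions of sequence, and no binding was measured.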

How the data were processed

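The authors deposited estimated counts per Ensembl gene, not normalized, for 24 plantaris libraries. Per the submitters' processing notes these come from Salmon 0.9.1 and name the builds rn6 and Rnor_6.0. Neither annotation nor settings were given in the sources used here. Groups came from the sample titles. Estimated counts were rounded. edgeR 4.0.16 in R 4.3.3 kept 16661 of 31998 genes (filterByExpr, minimum count 10, minimum total 15), scaled by TMM, and fitted all 4 groups in 1 robust quasi-likelihood model, adjusting p over all tested genes (Benjamini-Hochberg, threshold 0.05). SE was derived from the log2 fold change and its F statistic, and 95% intervals from the SE.

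Ratio tests enumerated all 924 splits of 6 against 6, or 853776 exchanges for the difference between responses. The latter exchanged lines within control and within overload, so the null of that test is no line difference in either state. Correlations used 100000 permutations within groups. The 6 genes, lists and tests were chosen with earlier results of these data known. Lists of other matrix genes and cell type markers were not analysed here, since 0 of 31998 IDs matched the reference table. The named genes are the 6 members and the 2 IDs most like them by mean r.

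Of 60 pairs within groups, none were duplicates (lowest chi-square per degree of freedom 13.9 over 12889 genes). In simulated counts with 200 changed genes, edgeR recovered 87.5% of genes changed 2-fold by overload in HRT (16457 genes tested). For the difference between responses it recovered 76.7% (16470 tested). Of the unchanged genes, 13 and 4 were called. In the data far more genes were called, 10523 for overload in HRT. The genes described here also varied more, with a median log2 SD of 0.84 in HRT overload against 0.25 over all tested genes. Their SE for the difference between responses ran from 0.35 (Fn1) to 0.66 (Col1a1). The simulated recovery therefore does not give the power for them. Alternatives were DESeq2 1.42.0 and limma-voom (limma 3.58.1), other scalings and filters, RIN, a replicate block, fits to only the groups compared, and leaving out single libraries. Figures used matplotlib 3.10.9.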

Additional observations from a re-analysis of the deposited data

Results flagged for a closer look

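LRT control replicate 2 lay far from the other 5 libraries of its group. Its Col1a1 level was 430 CPM, with the next at 126 CPM. Its Col1a2 level was 434 CPM, with the next at 173 CPM, and its Sparc level 246 CPM, with the next at 153 CPM. Its ratio of Col3a1 to Col1a1 was 1.18, with the next at 2.81, and its ratio of Fn1 to Col1a1 was 0.583, with the next at 1.46. In each case the gap to the nearest library was over 0.625 of the group's range on the log2 scale. These were the 5 flags among 44 groups of values, all from 1 library, where chance flags about 5% of groups.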

How the results depend on the processing

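Each of the 12 overload responses of the 6 genes kept its direction in 22 other settings, 10 with all libraries and 12 without 1 of them, and all but Lox in HRT (in the text) kept their call. In that fit 5 of 6 were called in HRT. For the difference between responses and for the lines in control muscle, 0 of 6 were called in any setting. For the lines in overloaded muscle 1 of 6, Fn1, was called with scaling by library totals alone, DESeq2, RIN as a covariate, and a replicate block with or without RIN, and with 1 library removed the count was 0 or 1. It was 1 without HRT overload replicates 3 or 4 or LRT overload replicate 2 (adjusted p = 0.0115, 0.0444 and 0.0263).

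Deviations of same-numbered libraries correlated at r from −0.127 to 0.367 over genes, not above 0.1 in every pair, and at most 2 of 6 correlated best with their own number, so the numbers were not taken to pair animals. Both ends were overloaded libraries of the 2 lines, at 0.0987, 0.367, 0.0477, 0.138, 0.148 and −0.127 for replicates 1 to 6. The other kinds of pair ran from −0.0978 to 0.127. Whether same-numbered overloaded libraries share a batch was not tested. With a replicate block, sign flips over 6 pairs cannot give a p below 0.0312. The ratio changes then had the same values and no longer passed after adjustment: −0.31 and −0.58 (Col1a2, HRT and LRT), −1.70 (Fn1, LRT), −1.27 and −1.91 (Sparc), −0.95 and −1.27 (Lox), with adjusted p of 0.112 to 0.142. Lox in LRT had the 0.142, and the others were at the smallest p that sign flips allow. With the block, Fn1 differed between lines in overloaded muscle by −0.72 (edgeR adjusted p = 0.0462). With 1 library removed, the difference between responses in the ratio to Col1a1 was −0.37 to −0.20 (Col1a2), −1.13 to −0.76 (Col3a1), −1.31 to −0.92 (Fn1) and −0.86 to −0.52 (Sparc). The line difference in control was 0.71 to 1.08 (Col3a1), 0.76 to 1.15 (Fn1) and 0.49 to 0.82 (Sparc), and the Col3a1 change in LRT −0.84 to −0.48. Each passed without LRT control replicate 2 and in no other setting. That library was flagged from values that enter these ratios, so leaving it out is no independent test. Depth limited none of the 6 genes, whose lowest control level was 6.10 CPM.

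Over all genes, the count differing in response was 8 in the model used, 1 with DESeq2 size factors, 137 with the DESeq2 test, 2 with limma-voom, 5 without a filter, 2 with RIN, 1 with a replicate block, 0 with both, and 1 to 25 with single libraries left out. Between lines in control muscle it was 328, against 619 with DESeq2, 206 without a filter and 154 to 495 with 1 library left out. Between lines in overloaded muscle it was 514, against 2153 with scaling by totals, 1093 with DESeq2, 307 without a filter, 785 with RIN, 289 with block and RIN, 115 from those groups alone and 171 to 1647 with 1 library left out. With block and RIN, overload called 1557 genes in HRT and 5183 in LRT, against 10523 and 9524. Scaling by totals raised 7942 and lowered 2238 genes in HRT (main 5319 and 5204), and raised 6765 and lowered 1893 in LRT (4808 and 4716), with median shifts of 0.27 and 0.22. The causes were not tested.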
